A study of Homo sapiens with 6 samples.

Results

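Fatty acid synthesis and desaturation were followed through 10 genes, chosen by symbol for their place in the pathway: the acetyl-CoA makers ACSS2 and ACLY, the carboxylase ACACA, the synthase FASN, the elongases ELOVL1, ELOVL5 and ELOVL6, and the desaturases SCD, FADS1 and FADS2. All 10 were listed among the 54259 gene symbols of the table, and all 10 passed the filter on low counts, which left 15277 genes for testing. RNA-Sequence was performed on MDA-MB-231 shBry cells (3 libraries), in which a hairpin targets the T-box factor brachyury, and on MDA-MB-231 shNC cells (3 libraries) with a control hairpin. This established line comes from a human breast cancer and lacks the estrogen and progesterone receptors. Both groups carry a hairpin, so the comparison asks how shBry cells differed from cells with another hairpin. It does not set either group against cells with none. The sources used here do not say whether the libraries of a group came from separate cultures, so p-values measure the spread between these libraries, which may be technical.

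Cells make fatty acids from acetyl-CoA. ACLY cuts it from citrate and ACSS2 makes it from acetate, ACACA turns it into malonyl-CoA, and FASN joins these units into palmitate. Elongases then lengthen the chain, SCD places the first double bond in saturated chains to give oleate and palmitoleate, and FADS2 and FADS1 desaturate the polyunsaturated fatty acids taken from food or medium. Most of these genes are known targets of the SREBP transcription factors, which also drive cholesterol synthesis when cell sterols are low, and tumor cells often make fatty acids at a high rate.

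The libraries held between 19319411 and 22985371 counts. Brachyury, listed under its older symbol T, had 0 counts in all 6 libraries, and a count of 0 allows up to 0.161 CPM (3 counts in the library with the highest such limit, covering counting error only). The counts thus gave no check of the knockdown itself. The study describes brachyury as constitutively overexpressed in this line. The reason for 0 counts in shNC, beside that description, was not tested. The deposited design text calls the RNA pericardial, while the sample labels name the breast cancer line. Of the markers of a mesenchymal breast cancer line, all 6 were expressed, with a summed level of 5884 to 6156 CPM in shNC and 5565 to 5805 CPM in shBry, and 1 of them, CAV1, was called lower (log2 fold change -1.11). Of 8 pericardial and heart markers, 3 were at 0 counts in every library, and the sum of 35.3 to 50.6 CPM over the 6 libraries was mostly MSLN. CALB2 of that list was called lower (log2 fold change -2.52), with 222 of its 281 shNC counts in 1 library. Of 8 luminal markers, ESR1, PGR and CDH1 were too low to test, KRT8 was called lower (log2 fold change -1.90) and EPCAM higher (1.47), and the summed level was 1343 to 1459 CPM in shNC against 567 to 705 CPM in shBry. Adipocyte markers summed to at most 2.31 CPM in any library and leukocyte markers to at most 0.229 CPM. ADIPOQ, LEP, PTPRC and TYROBP were at 0. The part of these marker differences in the results was not tested.

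The desaturase genes FADS2 and SCD and the acetate enzyme gene ACSS2 fell most. A gene was called when its adjusted p was below 0.05 and its fold change exceeded 1.5. Of the 10 genes, 5 were called lower in shBry (FADS2, SCD, ACSS2, FASN and ELOVL5), and edgeR, DESeq2 and limma-voom called none higher. Over all genes tested, 15.2% were called lower and 17.1% higher. At an unadjusted p below 0.05 and any fold change, edgeR gave 7 of the 10 genes lower and 1 higher. The same numbers held at an adjusted p below 0.05 and any fold change. That limit was passed by 8139 of the 15277 genes tested, so passing it was common. The 3 values of shBry did not overlap the 3 values of shNC for 8 of the 10 genes, where this held for 59.5% of all genes tested, so non-overlap alone says little about these genes. The median log2 fold change of the 10 genes was -0.70, beside 0.03 over all genes tested. In bulk RNA, fewer cells of a type and less RNA per cell cannot be told apart. Together the 10 genes had 4264 ± 165 CPM in shNC (SD, n = 3) and 2229 ± 14.8 CPM in shBry (SD, n = 3). SCD made up 32.6% ± 0.690 of that sum in shNC and 20.8% ± 1.49 in shBry (SD, n = 3), while the share of ELOVL1 went from 4.69% ± 0.233 to 12.5% ± 0.667. The result was not uniform. ELOVL1 was somewhat higher in shBry, FADS1 was at nearly the same level in both groups, and ACACA had few counts and was not called. CPM are counts relative to the library size after TMM scaling. A negative log2 fold change means lower in shBry than in shNC. Each edgeR p was adjusted by the Benjamini-Hochberg method over all genes tested, after a quasi-likelihood fit.

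**Figure D1:**
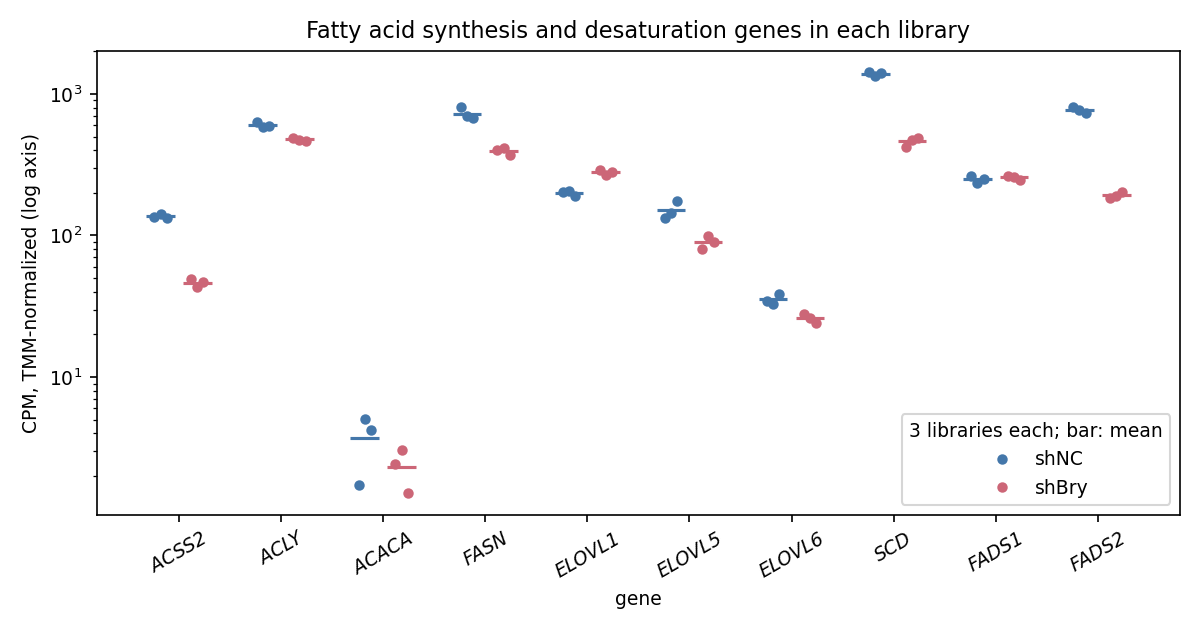
CPM of each of the 10 genes (log axis) in the 3 shNC libraries (blue) and the 3 shBry libraries (red), with a bar at each group mean. SCD, FADS2 and ACSS2 show wide gaps between the groups, the FADS1 values of both groups lie between 234 and 264 CPM, and ACACA lies at 1.51 to 5.05 CPM.

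The proximal promoters of SCD and ACLY are shown because both hold a pair of CCAAT boxes, the element bound by NF-Y, which acts beside SREBP at many lipogenic promoters. SCD is the member with the highest level per kilobase in shNC, and ACLY is a member whose level differed little. ELOVL5, which was called lower, also holds a pair and is not printed. Sequences are from the RefSeq promoter table (GRCh38.p14), 5′ to 3′ on the strand of the gene, ending before the first base of any GENCODE exon, with CCAAT or its reverse complement in capitals. The SCD stretch lies at chr10:100346983-100347123 on the plus strand and the ACLY stretch at chr17:41919023-41919272 on the minus strand.
SCD: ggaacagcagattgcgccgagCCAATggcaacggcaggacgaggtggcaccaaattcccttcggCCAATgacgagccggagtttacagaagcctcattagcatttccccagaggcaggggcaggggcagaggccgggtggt
ACLY: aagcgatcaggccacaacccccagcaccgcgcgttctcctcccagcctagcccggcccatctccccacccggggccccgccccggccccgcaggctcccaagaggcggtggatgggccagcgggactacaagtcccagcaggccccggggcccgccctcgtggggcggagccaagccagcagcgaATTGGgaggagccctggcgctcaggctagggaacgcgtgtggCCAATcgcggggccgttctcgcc

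RefSeq windows were found for 9 of the 10 genes, all but FASN. In the 250 bases before the RefSeq start, searched on both strands, the CCAAT box was found in 5 of 9 windows (SCD, ACLY, ELOVL1, ELOVL5 and ACSS2), in 34.7% of the windows of genes tested and in 12 of the 15 windows found for cholesterol synthesis enzymes. The 5 genes with the box thus include ELOVL1, which was higher in shBry, and ACLY. The sterol regulatory element, searched as TCACNCCAC, was in none of the 9 windows and in 0.913% of those of genes tested. It was also in none of the 15 windows found for cholesterol synthesis enzymes. Its absence thus does not set the fatty acid genes apart. The E-box CACGTG was in 1 of 9 (ELOVL5) and in 9.06% of those of genes tested. The T-box motif, searched as TCACACC, was in none of the 9 and in 2.41% of those of genes tested. The GC box, searched as GGGCGG, was in 7 of 9 and in 66.7% of those of genes tested, and in ELOVL1 a match overlapped the CCAAT box. The windows follow 1 RefSeq start per gene. That start lies 11558 bases from the start of the principal GENCODE transcript for FADS2, 1446 bases for ACSS2 and 47720 bases for ACACA, so these windows may not be the promoters in use.

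The genes for both acetyl-CoA makers had lower levels in shBry. ACSS2, which makes acetyl-CoA from acetate (chromosome 20 of GRCh38, 34872146 to 34927962), had 136, 142 and 132 CPM in shNC replicates 1, 2 and 3, and 49.1, 43.3 and 46.8 CPM in shBry. Every shBry library was thus below 50 CPM and every shNC library above 130 CPM. ACSS2 fell 2.95-fold (log2 fold change -1.56, SE 0.08, edgeR adjusted p = 3.28e-09). ACLY, which makes acetyl-CoA from citrate (chromosome 17, 41866908 to 41930542), had 631, 583 and 595 CPM in shNC and 492, 472 and 468 CPM in shBry. The groups did not overlap, but the difference was small. ACLY was 1.26-fold lower in shBry (log2 fold change -0.34, 95% interval -0.50 to -0.18, edgeR adjusted p = 0.00162), under the fold change limit.

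FASN, the synthase that builds palmitate (chromosome 17, 82078333 to 82098332), had 811, 697 and 672 CPM in shNC and 401, 414 and 373 CPM in shBry. The lowest shNC library was well above the highest shBry library. FASN fell 1.84-fold (log2 fold change -0.88, SE 0.09, edgeR adjusted p = 1.55e-06). It was not called with a fold change limit of 2.

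ACACA, the carboxylase that makes malonyl-CoA (chromosome 17, 37084988 to 37406818), had only 38, 107 and 85 counts in shNC replicates 1, 2 and 3 and 45, 73 and 34 counts in shBry, while no other gene of the 10 had fewer than 518 counts in any library. The groups overlapped, and ACACA was not called (log2 fold change -0.65, 95% interval -1.40 to 0.09, edgeR adjusted p = 0.130). It passed both limits without shBry replicate 2 (log2 fold change -0.93, edgeR adjusted p = 0.0314) and without shNC replicate 1 (-0.997, edgeR adjusted p = 0.0108). The genes around it were also low. Of 16 other coding genes within 600 kb, ranked by the median count of each, the upper middle gene had 11.5 counts. None of the 16 reached 1000 counts in any library. Among them were genes that most cells use, such as GGNBP2 (10 to 87 counts), SYNRG (1 to 30) and AATF, which had 534 counts in 1 library and at least 24 in each. These 3 were named after their values were seen. Low neighbors were also seen around ELOVL5 and ELOVL6, which, unlike ACACA, had at least 518 counts themselves in every library. None of the 13 coding genes around ELOVL5 and none of the 10 around ELOVL6 reached 1000 counts either, while 28 of 46 did around FASN. By the same ranking the middle gene around ELOVL5 had 2.0 counts, and the upper middle gene around ELOVL6 had 28.5. The cause of the low ACACA counts was not tested. The paralog ACACB, the carboxylase of the mitochondrial surface, was measured at 19.03 ± 2.30 CPM in shNC and 6.57 ± 1.02 CPM in shBry (SD, n = 3, log2 fold change -1.53, edgeR adjusted p = 1.55e-06).

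The elongases did not change alike. ELOVL5, which lengthens polyunsaturated chains (chromosome 6, 53267398 to 53349179), had 134, 143 and 175 CPM in shNC and 80.8, 98.6 and 90.0 CPM in shBry. It had the widest spread among shNC libraries of the 3 elongases, and the groups were still apart. ELOVL5 fell 1.68-fold (log2 fold change -0.75, SE 0.11, 95% interval -0.98 to -0.52, edgeR adjusted p = 4.64e-05). The interval includes values under the fold change limit, and ELOVL5 was not called with a limit of 2.
ELOVL6, which lengthens palmitate to stearate (chromosome 4, 110045846 to 110199199), had 34.6, 33.1 and 38.8 CPM in shNC and 27.9, 26.3 and 24.1 CPM in shBry. It was 1.36-fold lower in shBry (log2 fold change -0.44, 95% interval -0.68 to -0.21, edgeR adjusted p = 0.00333), and was not called because of the fold change limit.
ELOVL1, which makes very long saturated and monounsaturated chains for sphingolipids (chromosome 1, 43363397 to 43368074), had 203, 206 and 190 CPM in shNC and 292, 266 and 280 CPM in shBry. It was the gene of the 10 with the highest log2 fold change, 0.48 (95% interval 0.32 to 0.65, edgeR adjusted p = 0.000116). All 3 shBry libraries were above all 3 shNC libraries, and at 1.40-fold the difference was under the fold change limit.

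SCD, the stearoyl-CoA desaturase (chromosome 10, 100347124 to 100364834), had 1432, 1339 and 1397 CPM in shNC and 424, 474 and 491 CPM in shBry. It had more counts than any other member in every shNC library. SCD fell to 33.3% of its shNC level (log2 fold change -1.59, SE 0.08, edgeR adjusted p = 2.00e-09). Of the stretches of 50 bases in its transcript, 4.42% also occur in transcripts of other genes, so a small part of its reads may be assigned elsewhere.
FADS2, which carries out the first desaturation of polyunsaturated fatty acids (chromosome 11, 61792980 to 61867354, plus strand), had 808, 772 and 729 CPM in shNC and 184, 189 and 202 CPM in shBry. The difference between groups was many times the range within either. FADS2 fell 4.01-fold (log2 fold change -2.003, SE 0.08, edgeR adjusted p = 1.57e-10), the largest change of the 10 genes. Ordered by log2 fold change from the lowest, it stood at position 134 of the 15277 genes tested.
FADS1, which carries out the later desaturation in the same route (chromosome 11, 61799625 to 61829318, minus strand), had 263, 234 and 250 CPM in shNC and 264, 260 and 248 CPM in shBry. The values of the groups were interleaved. FADS1 was not called (log2 fold change 0.04, 95% interval -0.12 to 0.21, edgeR adjusted p = 0.653), and the interval lies inside the fold change limit on both sides. Its sign was not stable, with -0.02 without shNC replicate 2.

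**Figure D2:**
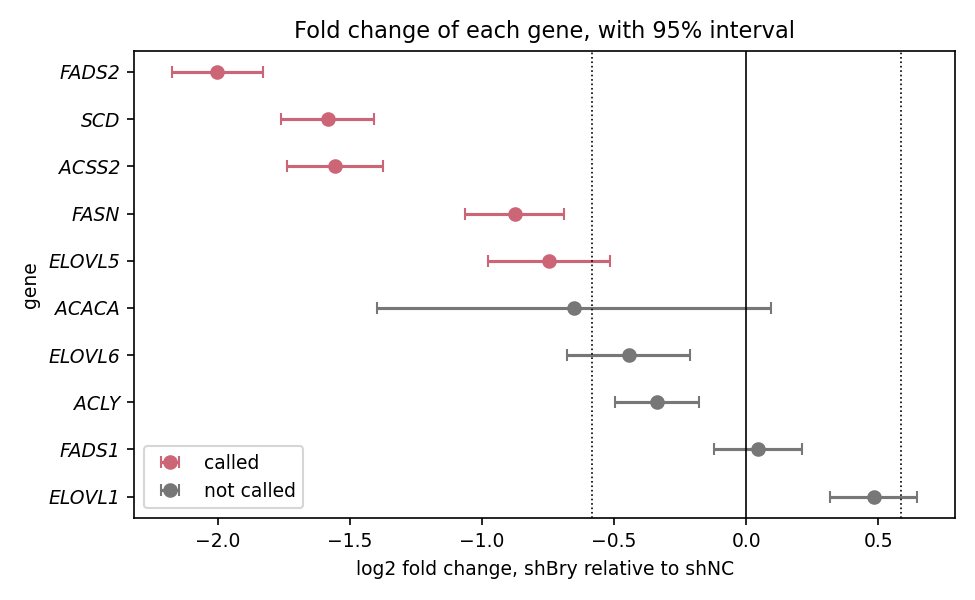
log2 fold change of the 10 genes, shBry relative to shNC, with 95% intervals from edgeR (dots and bars, red where called). The dotted lines mark the fold change limit of 1.5 in each direction. FADS2 lies lowest at -2.003, FADS1 covers 0, and ACACA has the widest interval.

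FADS1 and FADS2 are neighbors on opposite strands, with the starts of their principal GENCODE transcripts 10599 bases apart, and their levels parted in shBry. Within a library the ratio of FADS1 to FADS2 counts does not depend on scaling. It was 0.326, 0.304 and 0.343 in shNC replicates 1, 2 and 3 and 1.43, 1.37 and 1.22 in shBry. The ratio was thus higher in every shBry library, by 2.05 on the log2 scale (two-sided exact permutation test, p = 0.1, the smallest p that 3 against 3 libraries allow). Of the exon bases of FADS1, 5.57% lie in exons of other genes, and of those of FADS2, 4.89%, in each case with the other FADS gene as the largest overlap. Whether reads were counted by strand is not given in the sources used here.
The ratio of SCD to FASN counts was 1.77, 1.92 and 2.08 in shNC and 1.06, 1.15 and 1.32 in shBry. SCD thus fell further than FASN in every shBry library, by 0.71 on the log2 scale (log2 difference -0.71, two-sided exact permutation test, p = 0.1, again the smallest possible). The size of both ratios also reflects the lengths of the transcripts, so that only their change between groups is read here.

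**Figure D3:**
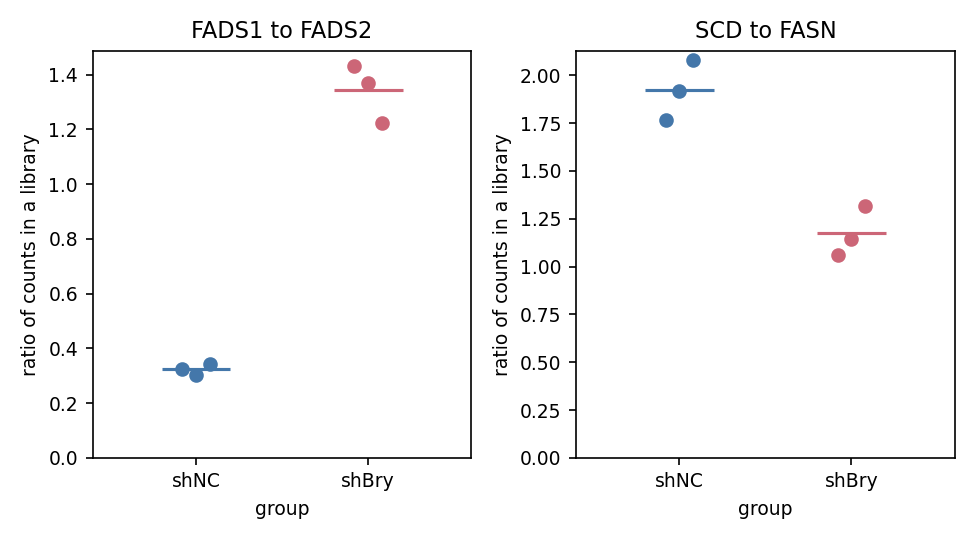
Ratio of FADS1 to FADS2 counts (left) and of SCD to FASN counts (right) within each library, with a bar at the mean of 3 libraries per group. The FADS1 to FADS2 ratio lies between 0.304 and 0.343 in shNC and between 1.22 and 1.43 in shBry, and the SCD to FASN ratio is lower in all shBry libraries.

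Levels of different genes were compared as CPM per kilobase of exon. In shNC the order ran from SCD (259 ± 8.79 CPM per kilobase, SD, n = 3) through ACLY (116 ± 4.78) to ELOVL1 (79.7 ± 3.28), FASN (77.6 ± 7.87) and FADS2 (69.8 ± 3.59), where FASN differed from both ELOVL1 and FADS2 by less than its own SD. Then came ELOVL5 (39.6 ± 5.68), and ACSS2 (25.4 ± 0.917) and FADS1 (24.4 ± 1.42), which differed by less than their spread, with ELOVL6 far lower at 4.86 ± 0.410. ACACA, with few counts, was last in both groups (0.283 ± 0.133 in shNC and 0.179 ± 0.0606 in shBry). In shBry the order was led by ELOVL1 (111 ± 5.23 CPM per kilobase), followed by ACLY (91.5 ± 2.40) and SCD (86.4 ± 6.44), the last 2 within their spread, and FASN (42.3 ± 2.21). FADS1 (25.1 ± 0.823) and ELOVL5 (23.6 ± 2.33) were within their spread and above FADS2 (17.4 ± 0.835), ACSS2 (8.62 ± 0.544) and ELOVL6 (3.57 ± 0.259). SCD thus moved from the first place to the third. The order depends on the length taken for a gene. Per kilobase of the longest coding transcript, FADS2 stood second in shNC with 212 CPM per kilobase and FADS1 and FADS2 had 56.8 and 52.9 CPM per kilobase in shBry, while SCD still led in shNC and ELOVL1 in shBry.

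The genes whose CPM across the 6 libraries were most like those of FADS2, by the root mean square difference of centred log2 CPM, were BNIP3 (0.05), LIG1 (0.06) and PTRF (0.07). BNIP3 encodes a mitophagy receptor, LIG1 the DNA ligase of replication, and PTRF a caveolae coat protein. Their log2 fold changes were -2.08, -2.02 and -1.98, beside -2.003 for FADS2.

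The enzymes around the 10 genes were examined with lists written from general knowledge. Among 13 further elongases, desaturases and enzymes of the elongation cycle, 9 were tested, with a median log2 fold change of -0.20. Of these 9, 4 were called lower (44.4%) and 2 higher (22.2%), beside 15.2% and 17.1% of all genes tested. ELOVL3 fell, with 4.65 ± 0.441 CPM in shNC and 1.18 ± 0.280 CPM in shBry (SD, n = 3, log2 fold change -1.96, edgeR adjusted p = 9.97e-06). FADS3, the third gene of the FADS cluster, rose, with 194 ± 9.43 CPM in shNC and 365 ± 31.9 CPM in shBry (log2 fold change 0.91, edgeR adjusted p = 7.24e-07). The FADS genes, neighbors of 1 family, thus took different courses, with FADS2 lower, FADS1 not called and FADS3 higher. The other calls, named after their values were seen, were TECR (log2 fold change -1.44), the last reductase of each elongation round, the dehydratase gene HACD3 (-0.71) and SCD5 (-0.87), a second stearoyl-CoA desaturase, all lower, and ELOVL7 (0.68), which was higher.
Of 12 genes for citrate, acetyl-CoA and NADPH supply, 3 were called lower (25%) and none higher, with a median of -0.36. The shares over all genes tested were 15.2% lower and 17.1% higher. ACACB had the largest fall, as given above. Named after their values were seen, the other 2 were the citrate carrier gene SLC25A1 (-0.67) and IDH1 (-0.76). At the limits of a call, edgeR, DESeq2 and limma-voom all gave none higher. At an unadjusted p below 0.05 and any fold change, a limit applied to edgeR only, 8 were lower and 3 higher. Even at an adjusted p below 0.05 and any fold change, 8139 of the 15277 genes tested passed.

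Of 16 acyl-CoA synthetase, binding and uptake genes, 11 were tested, with a median log2 fold change of 0.18. Of these 11, 4 were called higher (36.4%) and 1 lower (9.09%), beside 17.1% and 15.2% of all genes tested. ACSL5, an acyl-CoA synthetase, rose, with 49.0 ± 3.25 CPM in shNC and 129 ± 5.67 CPM in shBry (log2 fold change 1.40, edgeR adjusted p = 1.15e-08), with 8.64% of its exon bases in other genes. DBI, the acyl-CoA binding protein, fell, with 126 ± 8.41 CPM in shNC and 46.9 ± 5.97 CPM in shBry (log2 fold change -1.43, edgeR adjusted p = 5.31e-08).
Of 27 genes of glycerolipid synthesis and lipid droplets, 23 were tested, 2 were called higher (8.70%) and 4 lower (17.4%), with a median of -0.01. The share called lower was near the 15.2% of all genes tested, and the share called higher was below their 17.1%. Of the droplet coat genes, PLIN2 rose, with 67.5 ± 5.80 CPM in shNC and 160 ± 3.12 CPM in shBry (log2 fold change 1.25, edgeR adjusted p = 3.36e-08). PLIN3 fell, with 417 ± 31.5 CPM in shNC and 192 ± 13.5 CPM in shBry (log2 fold change -1.12, edgeR adjusted p = 1.04e-07). Of its exon bases, 17.8% lie in other genes as well.
All 28 genes of fatty acid oxidation were tested, with a median of -0.15. Of these, 7 were called lower (25%) and 1 higher (3.57%), beside 15.2% and 17.1% of all genes tested. The gene called higher, ACADL, had only 11 to 39 counts per library (log2 fold change 1.07, edgeR adjusted p = 0.0115). ECI2, an isomerase for unsaturated chains, had a log2 fold change of -1.01 (edgeR adjusted p = 2.13e-07), with 29.8% of its exon bases in other genes. Of 7 genes of mitochondrial fatty acid synthesis, 6 were tested and none was called by edgeR, DESeq2 or limma-voom. In edgeR, 2 were lower at an unadjusted p below 0.05 and any fold change, a limit that most genes tested passed.

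The SREBP genes moved in opposite directions. SREBF1, which encodes the factor best known for fatty acid genes, had 115 ± 10.4 CPM in shNC and 186 ± 11.5 CPM in shBry (SD, n = 3) and rose (log2 fold change 0.69, SE 0.09, edgeR adjusted p = 1.53e-05). SREBF2, which encodes the factor best known for sterol genes, fell, with 387 ± 23.7 CPM in shNC and 225 ± 3.53 CPM in shBry (log2 fold change -0.78, SE 0.08, edgeR adjusted p = 1.31e-06). These are transcript levels, and the amount of cleaved SREBP protein was not measured. INSIG1, which retains SREBP in the endoplasmic reticulum and is itself a sterol-responsive gene, fell, with 89.5 ± 4.71 CPM in shNC and 26.8 ± 4.16 CPM in shBry (log2 fold change -1.74, edgeR adjusted p = 1.75e-08).
In the list of 21 SREBP and lipogenic control genes, 20 were tested, with a median of -0.48. Of these 20, 9 were called lower (45%) and 3 higher (15%), beside 15.2% and 17.1% of all genes tested. MID1IP1, whose protein helps acetyl-CoA carboxylase to polymerize, rose most, from 31.2 ± 1.91 to 67.4 ± 4.54 CPM (log2 fold change 1.11, edgeR adjusted p = 3.42e-07).

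Cholesterol synthesis, the other arm of SREBP control, is given for comparison. Of its 20 enzymes, 19 were called lower and none higher, with a median log2 fold change of -1.35, beside 5 of 10 and -0.70 for the fatty acid genes. Among all genes tested, 15.2% were called lower and 17.1% higher, with a median of 0.03. At the limits of a call, edgeR, DESeq2 and limma-voom all gave none higher. Most genes tested passed an unadjusted p below 0.05 at any fold change, a limit applied to edgeR only. Of the 20 enzymes, 19 were lower and 1 was higher at that limit. The gene that was higher, named after its value was seen, was PMVK (log2 fold change 0.39, edgeR adjusted p = 0.0188), under the fold change limit. HMGCS1, which makes the precursor HMG-CoA, had a log2 fold change of -1.88, with 15.0% of its exon bases in other genes. ACAT2 had the largest fall of the list, -2.15, with 52.3% of its exon bases in other genes. FADS2, SCD and ACSS2 thus lay below the cholesterol median, and the other 7 fatty acid genes above it. Whether the 2 lists differ was not tested.

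**Figure D4:**
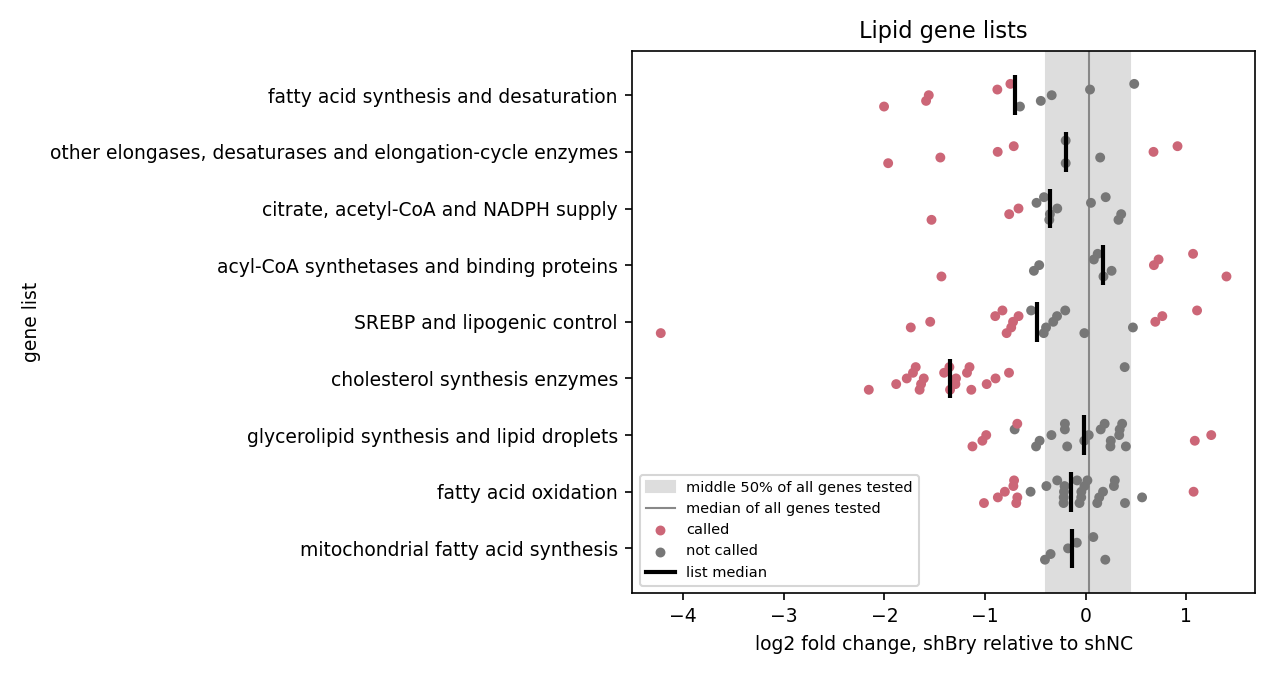
log2 fold change, shBry relative to shNC, of every tested gene (dots, red where called) in the fatty acid list and 8 other lipid lists, with the list median as a black bar. The grey band holds the middle 50% of all genes tested. The cholesterol enzymes lie lowest with a median of -1.35, the fatty acid genes have a median of -0.70 and a wide spread, and the lists of activation, storage and oxidation lie around 0.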

How the data were processed

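RNA of 3 MDA-MB-231 shBry and 3 shNC libraries was sequenced for the authors by Shanghai Novelbio. Raw counts per gene symbol were deposited without normalization. The submitters' processing notes name HISAT2 2.0.4, HTSeq and GRCh38. The annotation and the strand setting are not given in the sources used here. Replicates were deposited singly, and samples were grouped by the hairpin in their labels. The table has 9 further columns, all empty.

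Low genes were removed from these counts by filterByExpr with a minimum count of 10. TMM factors were applied and shBry was compared with shNC by quasi-likelihood in edgeR (version 4.0.16, R 4.3.3). A call needed a fold change over 1.5, the study's limit, together with a p under 0.05 after Benjamini-Hochberg adjustment. The standard error is the log2 fold change divided by the square root of F. Lists are described by counts and medians, without a set test. The 10 genes, the lists and the rules were chosen with earlier results of these data known. Named genes are the 10 members, the largest rise and fall called in each other list, 6 SREBP and sterol genes, and the 3 genes most like the member that changed most. Some genes that this rule names are not reported here. Locations, lengths and overlaps came from GENCODE 29 (GRCh38), matched by symbol. The test was checked on simulated counts before use. Libraries of a group differed by more than sampling noise (chi-square per degree of freedom 4.70 to 15.5). Alternatives were no TMM scaling, DESeq2 1.42.0, limma-voom (limma 3.58.1), 2 other filters, other limits, the replicate number as a block, and each library left out.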

Additional observations from a re-analysis of the deposited data

How the results depend on the processing

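FADS2, SCD and ACSS2 were called lower in every alternative run, 15 settings each. FASN and ELOVL5 were called in all but the limit of 2. With that limit 3 of the 10 genes were called lower and 2297 genes in all, against 5 and 4945. Without a fold change limit 8139 genes were called, among them 7 of the 10 genes lower and 1, ELOVL1, higher. The median log2 fold change of the 10 genes was -0.65 with limma-voom and -0.75 without ACACA, an alternative chosen after seeing the data. With each library left out, it lay between -0.88 and -0.58, the number called lower between 5 and 6 and all calls between 4587 and 5025. The log2 fold change of FADS1 lay between -0.0185 (without shNC replicate 2) and 0.0808 (without shNC replicate 1), and those of the FADS1 to FADS2 and SCD to FASN ratios between 2.001 and 2.11 and between -0.80 and -0.64. ACACA was also called without an expression filter (-0.67, adjusted p = 0.0201, edgeR), and its adjusted p lay between 0.0108 and 0.460 over all alternatives. The cause was not tested. Scaling moved the median of all genes by at most 0.02.

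With the replicate number as a block, 4914 genes were called, 5 of the 10 genes were called lower and the median was -0.68. Whether the numbers pair the libraries is not given in the sample labels. Deviations of libraries with the same number correlated at 0.18, -0.08 and -0.03. With 3 libraries per group these values cannot settle it. The block changed no call of the 10 genes. ACACA, at 34 to 107 counts per library, had the widest interval of the 10 genes.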
